A study of Mus musculus with 17 samples.

Results

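The genes described here are 10 genes of tissue-resident macrophages, taken by name from the 55401 gene identifiers measured in mouse perigonadal white adipose tissue (pWAT), the fat beside the gonads. They are *Adgre1*, *Csf1r*, *Mertk*, *Timd4*, *Mrc1*, *Cd163*, *Cd209f*, *Lyve1*, *Folr2* and *F13a1*, and all 10 were above 10 normalized counts in every mouse. A normalized count is the number of reads of a gene divided by the size factor of its library. The study asked what the loss of *U90926* does to the transcripts of pWAT. It sequenced 5 WT females, 5 U9-KO females, 3 WT males and 4 U9-KO males, with 1 library per mouse. All mice were C57BL/6J littermates from crosses of heterozygous parents, fed a normal chow diet, and 16 weeks old by the study's methods. U9-KO mice were homozygous for a germline deletion of the 5 exons of *U90926* in every cell type, so the knockout is not particular to macrophages.

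Macrophages that live in fat depend on the growth factor receptor CSF1R. They take up dead cells, iron, haemoglobin and other debris through scavenger and phosphatidylserine receptors. Those that lie along vessels and in the connective tissue of fat are known for the mannose receptor CD206, for CD163 and for the hyaluronan receptor LYVE1, and a long-lived population carries TIM4. Blood monocytes that enter fat, and macrophages that gather around dying adipocytes, carry other genes more strongly.

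In females, none of the 10 genes differed between U9-KO and WT mice beyond the spread between mice. All 10 fitted log2 fold changes were below 0 before rounding, as were those of 12433 of all 24825 genes tested. Those of the 10 genes ran from -0.28 for *Adgre1* to 0.00 for *Cd209f*, with a median of -0.12. That median became -0.34 without WT female 4, a mouse low for 9 of the 10 genes. It became -0.02 without U9-KO female 1, and also without U9-KO female 3. In males, 9 of the 10 were lower in U9-KO mice, beside 10933 of all 21930 genes tested. The 9 were led by *Csf1r* (-0.50), *Cd209f* (-0.50) and *Mertk* (-0.40), and *Lyve1* was at 0.10. None of the 10 passed the correction over all genes in males either. The male differences of most members rested on WT male 2, the male with the highest value of all 10 genes. *Mertk* and *Csf1r* were the exceptions, at -0.36 and -0.30 when that mouse was set aside.

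The targeted gene could not check the labels. *U90926* stood at a normalized count of 1 in 2 mice, WT male 2 and WT female 3, and at 0 in the remaining 15. Markers of pWAT were present, with 6 of 6 adipocyte genes and 16 of 16 genes shared by macrophages above 10 in every mouse. The female libraries also held RNA of the ovary and oviduct. The summed normalized count of 8 genes of these organs was 71746 in WT female 4 and 87460 in U9-KO female 1, against 2786 to 19743 in the other 8 females and 179 to 329 in males. Genes of the epididymis summed to at most 2 in males. The 17 libraries held about 19700000 to 27600000 counted reads each. This was estimated from how often each low normalized count occurs, as the deposited values keep no raw depth. The estimate was ambiguous for some libraries, among them U9-KO male 3, the highest. No library was a copy of another of its group, since any 2 mice of a group differed in 24469 genes or more. Mice of different groups were not compared in this way. In whole tissue, fewer macrophages and less RNA per macrophage cannot be told apart.

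The promoters of *Mrc1* and *F13a1* are shown because their values were the most alike of any pair of members by Pearson's r over the 17 mice. Each line gives the 250 bases before a RefSeq transcript start (GRCm38.p6), 5′ to 3′ along the gene's strand. Capitals mark GAGGAA or its reverse complement TTCCTC, a purine-rich core of sites for PU.1, a transcription factor of macrophages.
Mrc1, chr2:14229164-14229413, plus strand: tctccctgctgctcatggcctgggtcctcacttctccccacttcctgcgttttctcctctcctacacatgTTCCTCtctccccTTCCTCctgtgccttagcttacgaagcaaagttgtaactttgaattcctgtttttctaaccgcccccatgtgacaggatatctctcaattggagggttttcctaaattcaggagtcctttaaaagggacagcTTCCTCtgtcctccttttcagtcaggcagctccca
F13a1, chr13:37050245-37050494, minus strand: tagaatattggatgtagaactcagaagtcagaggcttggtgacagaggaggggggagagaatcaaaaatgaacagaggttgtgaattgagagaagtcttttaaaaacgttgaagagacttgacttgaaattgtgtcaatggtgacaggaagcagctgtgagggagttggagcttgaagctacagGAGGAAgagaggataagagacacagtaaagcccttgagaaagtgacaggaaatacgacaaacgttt

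The *Mrc1* window held 3 matches and this *F13a1* window 1. The other *F13a1* window in the RefSeq table, chr13:37049214-37049463, held 0. Of the 9 windows of members, 2 held the motif on either strand, while 23.3% of 32851 windows of this length over all genes did. A match is a run of letters and says nothing of binding.

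Differential expression was tested with limma on log2(normalized count + 1) in each sex, with Benjamini-Hochberg adjustment over all genes tested. With the added 1, changes of genes at low counts come out smaller than they are. The members were not tested as a group.

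*Adgre1* (ENSMUSG00000004730, chromosome 17, 57358691 to 57483527) encodes F4/80, the surface antigen by which mouse macrophages are commonly sorted. Its normalized counts were 940, 841, 931, 542 and 1004 in WT females 1 to 5. They were 649, 835, 441, 752 and 835 in U9-KO females 1 to 5. The groups overlapped, with WT female 4 and U9-KO females 1 and 3 at the low end. WT females averaged 852 ± 183 and U9-KO females 702 ± 165 (mean ± SD of 5 mice each). In males the values were 779, 1277 and 1014 in WT mice and 713, 936, 645 and 915 in U9-KO mice. WT male 2 stood highest and the other 2 WT males lay within or just above the U9-KO values. The log2 fold change was -0.28 in females (SE 0.21, adjusted p = 1) and -0.34 in males (SE 0.18, adjusted p = 0.673). It was -0.17 in males without WT male 2 and -0.44 in females without WT female 4 (limma unadjusted p = 0.0321, adjusted p = 1).

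*Csf1r* (ENSMUSG00000024621, chromosome 18) encodes the receptor for CSF1 and IL-34, on which most tissue macrophages depend for survival. WT females 1 to 5 had 2953, 2854, 2673, 1196 and 2738 normalized counts. U9-KO females 1 to 5 had 1919, 2552, 1679, 2426 and 2672. WT female 4 lay far below every other female, and the other 4 WT females were each above every U9-KO female, though WT female 3 and U9-KO female 5 were almost level. In males, *Csf1r* was at 4012, 6263 and 4399 in WT mice and at 3156, 3844, 2822 and 3926 in U9-KO mice. Every WT male was above every U9-KO male, and WT male 1 exceeded U9-KO male 4 by little. The 3 WT males averaged 4891 ± 1204 and the 4 U9-KO males 3437 ± 536 (mean ± SD), a fitted fold of 0.71. The male log2 fold change was -0.50 (SE 0.16, 95% interval -0.86 to -0.13, limma unadjusted p = 0.0126, adjusted p = 0.612). It was -0.30 without WT male 2, and its adjusted p ranged from 0.133 to 0.855 over the alternative settings. In females it was -0.09 (SE 0.24, adjusted p = 1), and -0.34 without WT female 4 (limma unadjusted p = 0.0334, adjusted p = 1). *Csf1r* shares 873 of 5774 exon bases with *Hmgxb3* on the other strand, and the study's methods describe a stranded library protocol, while the strand setting of the counting is not given in the sources used here.

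*Mertk* (ENSMUSG00000014361, chromosome 2, 128698956 to 128802894) encodes a receptor tyrosine kinase that binds dead cells through GAS6 and protein S. In females it was the steadiest of the 10 genes, at 721, 832, 917, 875 and 824 in WT mice and at 706, 995, 748, 826 and 761 in U9-KO mice. The female groups covered the same range, and WT female 4, low for every other member, was not low here. WT males had 1337, 1554 and 1518 normalized counts. U9-KO males had 1155, 915, 1233 and 1175. All 3 WT males were above all 4 U9-KO males, with a gap from 1233 to 1337. The 3 WT males averaged 1470 ± 116 and the 4 U9-KO males 1120 ± 140 (mean ± SD), a fitted fold of 0.759. The male log2 fold change was -0.40 (SE 0.11, 95% interval -0.64 to -0.15, limma unadjusted p = 0.00473, adjusted p = 0.612). With each male left out in turn it stayed between -0.47 and -0.30, and over all alternatives the adjusted p ranged from 0.123 to 0.855. In females it was -0.05 (SE 0.11, 95% interval -0.29 to 0.18, adjusted p = 1). The difference of the male and female effects, tested as an interaction, was -0.35 (SE 0.16, limma unadjusted p = 0.0491, adjusted p = 1).

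*Timd4* (ENSMUSG00000055546, chromosome 11, 46810800 to 46844332) encodes TIM4, a receptor for phosphatidylserine on dying cells. WT females had 242, 179, 171, 63 and 154 normalized counts. U9-KO females had 130, 189, 54, 159 and 132. WT female 4 and U9-KO female 3 were far below the rest of their groups. In males the counts were 130, 207 and 78 in WT mice and 102, 174, 138 and 42 in U9-KO mice, with wide overlap. Fitted log2 fold changes were -0.27 in females (SE 0.39, adjusted p = 1) and -0.34 in males (SE 0.46, adjusted p = 0.86). *Timd4* had the widest 95% intervals of the 10 genes, -1.12 to 0.58 in females and -1.36 to 0.68 in males, both of which include a 2-fold lower value in U9-KO mice.

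*Mrc1* (ENSMUSG00000026712, chromosome 2, 14229392 to 14332057) encodes the mannose receptor CD206. Its normalized counts in WT females were 2470, 2236, 2416, 1206 and 2436, and in U9-KO females 1437, 1943, 1779, 2450 and 2259. WT female 4 was the lowest of all females, and the other 4 WT females lay within a narrow band that U9-KO females 4 and 5 reached. In WT males they were 3445, 6160 and 4014, and in U9-KO males 3417, 4109, 3054 and 4592. Apart from WT male 2, WT males lay within the range of U9-KO males. Its log2 fold change was -0.10 in females (SE 0.21, adjusted p = 1) and -0.23 in males (SE 0.20, adjusted p = 0.773). Without WT male 2 the male value was 0.01.

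*Cd163* (ENSMUSG00000008845, chromosome 6, 124304656 to 124330527) encodes the scavenger receptor for haemoglobin bound to haptoglobin. WT females were at 1345, 1230, 1573, 561 and 1510, and U9-KO females at 589, 1209, 975, 1384 and 1287. The 2 lowest mice, WT female 4 and U9-KO female 1, were the 2 with the most ovary RNA, 1 in each genotype. WT males were at 2128, 2568 and 1856, and U9-KO males at 1479, 2071, 1504 and 2130. U9-KO males 1 and 3 were the lowest males, and U9-KO males 2 and 4 were level with WT males. On the log2 scale the U9-KO to WT difference was -0.17 in females (SE 0.30, adjusted p = 1) and -0.29 in males (SE 0.16, adjusted p = 0.679).

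*Cd209f* (ENSMUSG00000051906, chromosome 8, 4102787 to 4105835) is a C-type lectin gene of the CD209 family. Its normalized counts were 1291, 1080, 1001, 355 and 1193 in WT females. They were 597, 1034, 755, 1014 and 1238 in U9-KO females. The groups overlapped, with WT female 4 lowest. In males, WT mice had 2059, 4438 and 1561, while U9-KO mice had 1673, 1951, 1579 and 1682. WT male 2 lay far above every other male, and WT male 3 had the lowest value of the 7. The log2 fold change was 0.00 in females (SE 0.33, adjusted p = 1) and -0.50 in males (SE 0.28, adjusted p = 0.687). The male value was -0.06 without WT male 2 and -0.82 without WT male 3. Of the 75-base windows of its exons, 23.5% also occur in *Cd209g*, so the counts of these 2 genes may be split unevenly.

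*Lyve1* (ENSMUSG00000030787, chromosome 7, 110850607 to 110863239) encodes a hyaluronan receptor of vessel-associated macrophages, and of lymphatic endothelium as well. In females its normalized counts were 1129, 1155, 1436, 643 and 1093 in WT mice and 854, 1010, 606, 1286 and 1113 in U9-KO mice. WT female 4 and U9-KO female 3 were lowest. In males they were 791, 1438 and 768 in WT mice and 740, 1436, 1289 and 796 in U9-KO mice. Each male group held mice near the low and near the high end. Its log2 fold change was -0.16 in females (SE 0.23, adjusted p = 1) and 0.10 in males (SE 0.27, adjusted p = 0.938), the only member with a positive value in males. Without WT male 2 it was 0.39. The 6 lymphatic genes, led by *Ccl21a* and *Mmrn1*, summed to 1857, 3988 and 3238 in WT males and to 2988, 3975, 3681 and 2230 in U9-KO males. The 3 males highest in *Lyve1* were also the 3 highest in this sum, and the part of lymphatic RNA in the *Lyve1* values was not tested.

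*Folr2* (ENSMUSG00000032725, chromosome 7, 101839988 to 101857194) encodes folate receptor beta, found on resident macrophages of many tissues. It was the member with the lowest counts, at 74, 42, 75, 39 and 76 in WT females and at 46, 52, 29, 85 and 71 in U9-KO females. Both groups spanned the same low range. WT males had 125, 224 and 86, and U9-KO males had 108, 142, 106 and 97. Only WT male 2 stood apart. On the log2 scale U9-KO minus WT was -0.14 in females (SE 0.32, adjusted p = 1) and -0.26 in males (SE 0.28, adjusted p = 0.831), and the latter became 0.11 without WT male 2. *Folr2* shares 975 of 1546 exon bases with *Gm10602* on the other strand, and its values are uncertain where strand was not used in counting.

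*F13a1* (ENSMUSG00000039109, chromosome 13, 36867178 to 37050244) encodes the A subunit of coagulation factor XIII, a transglutaminase that cross-links fibrin. WT females had 2050, 1923, 2163, 787 and 2518 normalized counts. U9-KO females had 1127, 1654, 1412, 2393 and 1920. WT female 4 was lowest, and the rest overlapped. WT males had 3638, 7396 and 4705, and U9-KO males had 4119, 4551, 3572 and 4081. U9-KO males lay close together, within the span of WT males 1 and 3 but for U9-KO male 3, and WT male 2 lay far above. As log2 fold changes, the differences were -0.10 in females (SE 0.30, adjusted p = 1) and -0.30 in males (SE 0.20, adjusted p = 0.725), or -0.03 without WT male 2. The partner gene *F13b*, made by liver, was at 0 in every mouse.

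**Figure D1:**
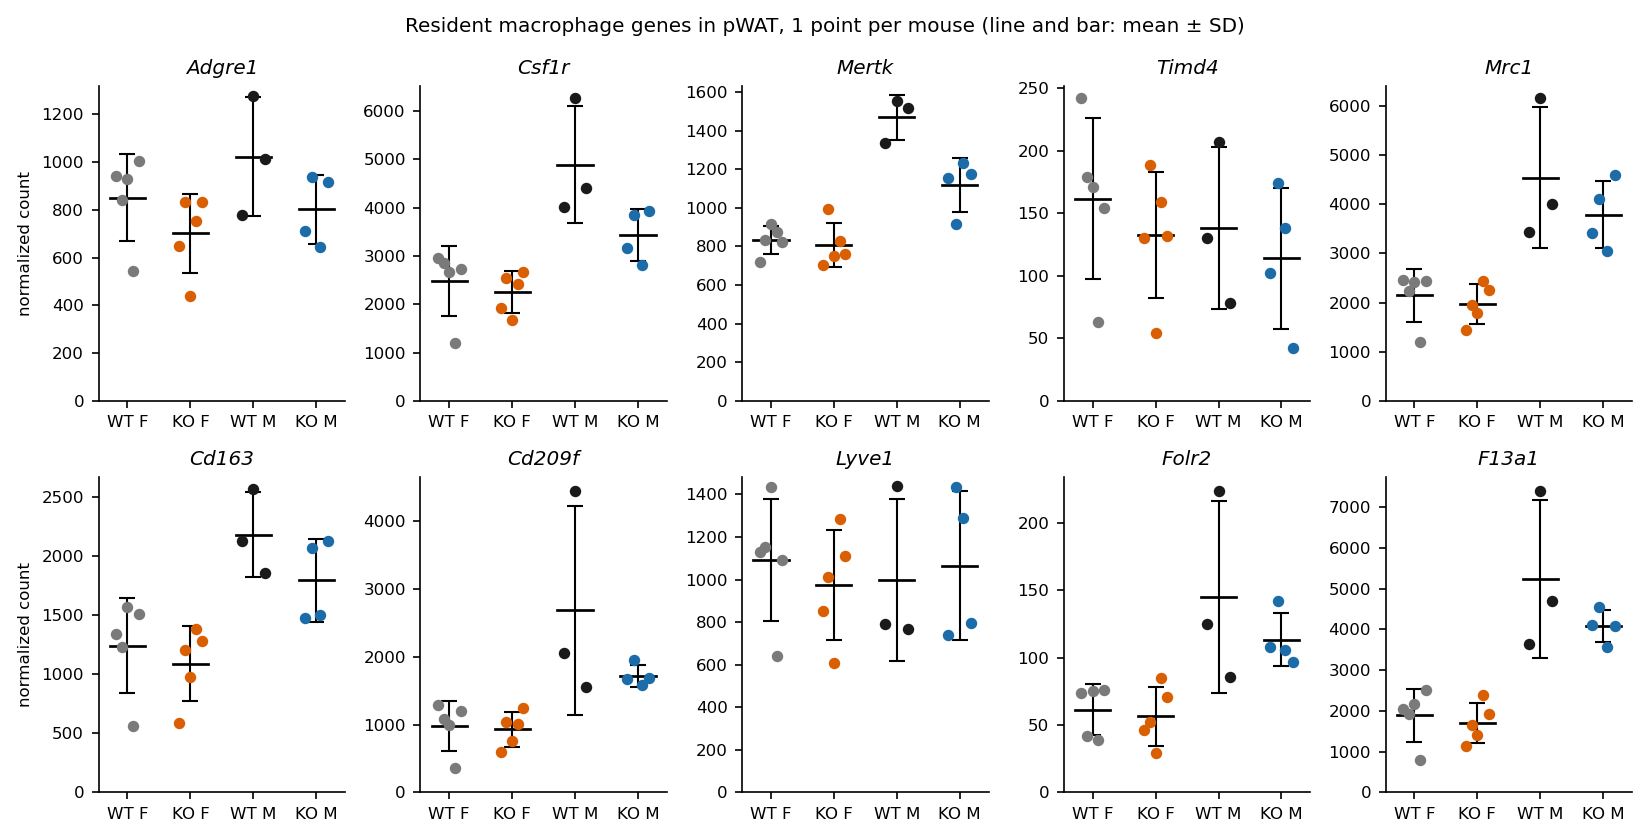
Normalized counts (vertical axes, from 0) of the 10 genes in each mouse, by sex (F, M) and genotype, with the mean as a line and the SD as a bar. In males WT and U9-KO points are separate for *Mertk* and *Csf1r*, while 1 WT male (WT male 2) stands highest of the males in every panel, and 1 WT female (WT female 4) lies lowest of its group in all panels but *Mertk*.

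Counted together, 0 of the 10 genes had an adjusted p under 0.05 in females, where 0 of 24825 genes did (0%). In males too, 0 of 10 passed, beside 0 of 21930 genes (0%). At an unadjusted p under 0.05 the members numbered 0 of 10 in females, where 2.23% of all genes were under it, and 2 of 10 in males (*Mertk* and *Csf1r*), where 7.6% were. Without WT female 4 the female number was 2 of 10 (*Adgre1* and *Csf1r*). With 1 female left out in turn, the number over all genes ranged from 410 to 1225, against 553 with all females. Where in this range the fit without WT female 4 lay is not given here. Groups did not overlap for 0 of 10 members in females, against 0.238% of all genes, and for the same 2 of 10 in males, against 7.6% of all genes. The median log2 fold change of the 10 was -0.12 in females and -0.32 in males, while that of all genes tested was 0.00 in each sex. With both sexes in 1 fit and sex as a covariate, 0 of 10 passed (0% of 26289 genes), and *Mertk* alone had an unadjusted p under 0.05, as 4.02% of all genes had. Without WT female 4 that number was 6 of 10 (*Adgre1*, *Csf1r*, *Mrc1*, *Cd163*, *Cd209f* and *F13a1*), and without WT male 2 it was 0. With 1 mouse left out in turn, 772 to 2207 of all genes were under it, against 1057 with all mice. The numbers over all genes without WT female 4 and without WT male 2 are not given here. With all mice, the log2 fold change of *Mertk* there was -0.19 (SE 0.09, limma unadjusted p = 0.0396, adjusted p = 0.938). For the interaction of sex and genotype, 0 of 10 members passed (0% of 26289 genes), and *Mertk* was the 1 member among the 3.46% of genes with an unadjusted p under 0.05.

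**Figure D2:**
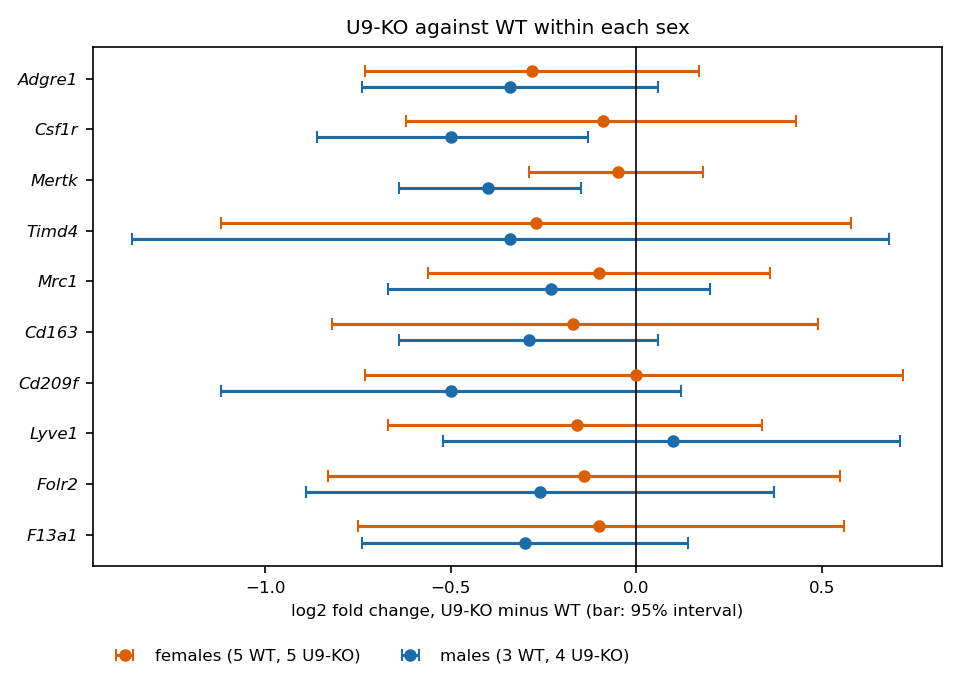
Log2 fold changes of U9-KO against WT (horizontal axis) with 95% intervals from limma, in females (orange) and males (blue). Of the 20 intervals only those of *Csf1r* and *Mertk* in males lie below 0, at -0.86 to -0.13 and -0.64 to -0.15.

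The male values of most members rested on WT male 2. It had the highest value of all 7 males for 10 of 10 genes, and the sum of the 10 genes was 31525 there, against 18444 and 19999 in the other WT males and 15942 to 20129 in U9-KO males. Without it the median log2 fold change of the 10 genes in males was -0.04 instead of -0.32, and *Timd4*, *Mrc1* and *Folr2* were then no longer below 0. *Csf1r* stayed at -0.30 (limma unadjusted p = 0.0475) and *Mertk* at -0.36 (limma unadjusted p = 0.0165), each with an adjusted p of 0.736. Both remaining WT males had 1337 or more for *Mertk*, above the 1233 of the highest U9-KO male, and 4012 or more for *Csf1r*, above 3926. This adds nothing to the separation with all males, as leaving out the highest WT male could not make these groups overlap.

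WT male 2 also carried the most RNA of several other cell types. Its 6 B cell genes summed to 864, against 364 and 471 in the other WT males and 259 to 293 in U9-KO males, so that these groups did not overlap. Its 6 genes of lymph node stroma summed to 3756, against 974 to 1620 in the other 6 males. *Cxcl13* (up to 2157 in WT males) and the lymphatic gene *Ccl21a* (up to 1527) made up most of that sum, while *Ccl19* was at 36 to 47. The 6 adipocyte genes had their lowest sum of all males in WT male 2, at 367582 against 418321 to 484856. All 6 B cell genes were lower in U9-KO males, 5 of them at an unadjusted p under 0.05, and so were all 6 T cell genes, 1 of them at that level. Among all 21930 genes tested in males, 10933 were lower, 898 at that level. The T cell sum, however, was not highest in WT male 2, at 158 against 305 and 231 in the other WT males and 182 and 168 in U9-KO males 2 and 4. The part of lymphoid tissue in the macrophage values was not tested. The 6 neutrophil genes summed to 185, 289 and 196 in WT males and to 98 to 180 in U9-KO males, without overlap. *Csf3r*, the receptor for G-CSF, made up most of that sum and was at -0.56 (limma unadjusted p = 0.015, adjusted p = 0.612), and *Ly6g* was at 0 or 1. The part of neutrophils was not tested either.

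**Figure D3:**
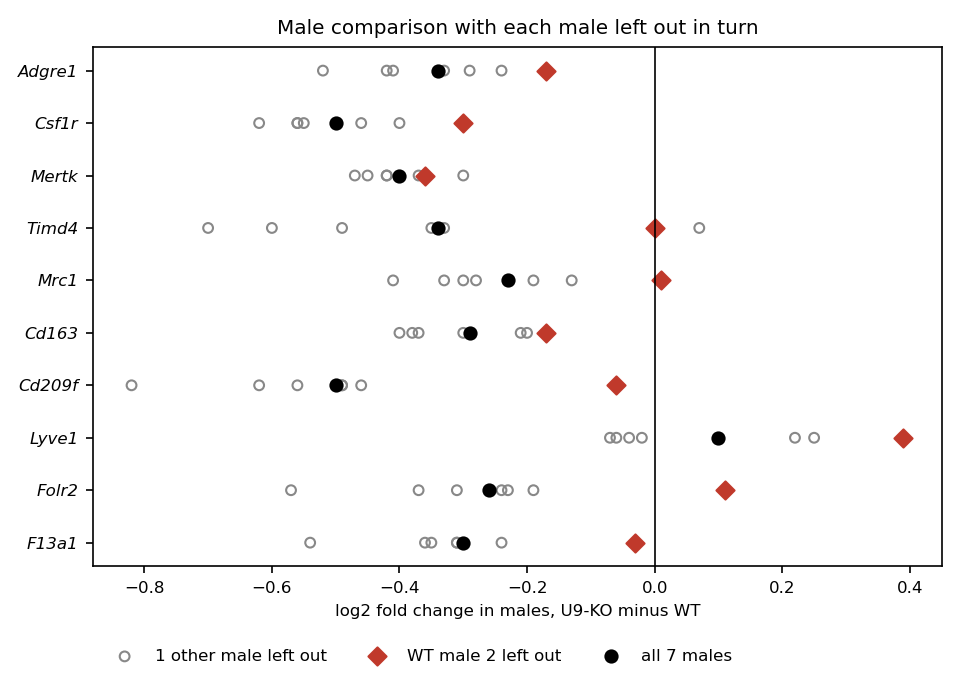
Log2 fold change of U9-KO against WT males (horizontal axis) for each gene with all 7 males (black), with WT male 2 left out (red diamonds) and with each of the other males left out (grey circles). Without WT male 2 the values of *Mrc1* and *Timd4* lie at 0.01 and 0.00, while *Csf1r* and *Mertk* keep -0.30 and -0.36.

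In females, the low mice were the same from gene to gene. WT female 4 was the lowest of the 5 WT females for 9 of 10 genes, and 5 of the 10 were at their lowest of all 10 females there. U9-KO female 3 was the lowest female for 4 genes and U9-KO female 1 for 1. On average over the 10 genes, log2(normalized count + 1) deviated from the mean of females by -0.77 in WT female 4, compared with -0.52 in U9-KO female 3 and -0.38 in U9-KO female 1. WT female 4 and U9-KO female 1 were also the 2 females with by far the most ovary and oviduct RNA. U9-KO female 3 was not, with a sum of 3206 for those genes, but it had the highest sum of 6 adipocyte genes of all females, 341405. Without WT female 4 alone, the median log2 fold change of the 10 genes was -0.34, with *Adgre1* at -0.44 (SE 0.18) and *Csf1r* at -0.34 (SE 0.14). It was -0.02 without U9-KO female 1 and also without U9-KO female 3. Without WT female 4 and U9-KO female 1, an alternative chosen after these values were seen, the median log2 fold change of the 10 genes was -0.24, and *Adgre1* was at -0.42 (SE 0.19) and *Timd4* at -0.60 (SE 0.35). *Mertk* was then at 0.01, and 0 of 10 genes had an adjusted p under 0.05. The part of ovary RNA in the other values was not tested.

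**Figure D4:**
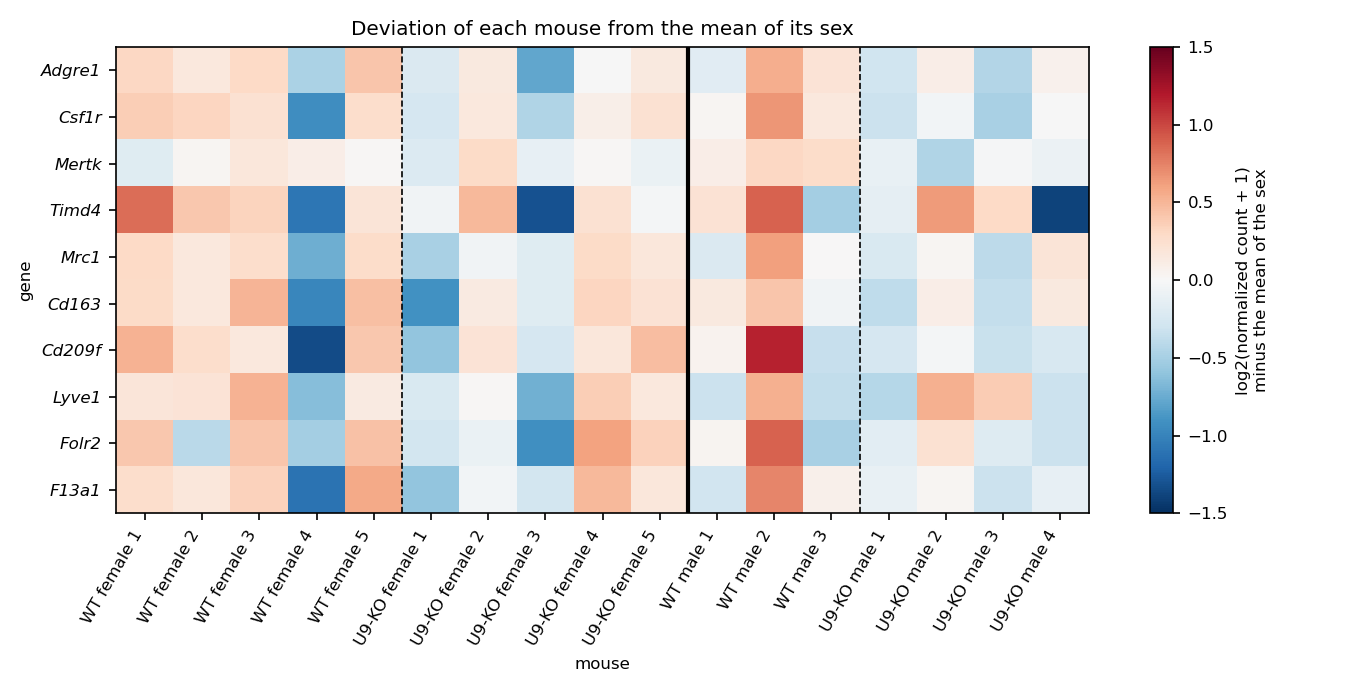
Deviation of log2(normalized count + 1) from the mean of the sex (color, in log2 units) for each gene (rows) and mouse (columns), with dashed lines between genotypes and a solid line between sexes. WT female 4, U9-KO female 1 and U9-KO female 3 are low (blue) and WT male 2 is high (red) across nearly all rows, with averages of -0.77, -0.38, -0.52 and 0.67.

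The members other than *Mertk* varied together from mouse to mouse. After the mean of each sex and genotype was removed, Pearson's r between 2 members over the 17 mice was between 0.42 and 0.95 for the 36 pairs without *Mertk* (median 0.72, median Spearman's rho 0.71). *Mrc1* and *F13a1* were the pair with the highest r over all mice, whereas *Csf1r* and *Cd209f* had the highest rho (0.92). *Mertk* was apart from the rest, with r between -0.08 and 0.09 for its 9 pairs (median 0.03, median rho 0.06). Without WT female 4 and WT male 2, mice chosen after their values were seen, the median r of the 36 pairs was 0.59, with a lowest value of -0.12 for *Timd4* and *Mrc1* and a highest of 0.91 for *Adgre1* and *Csf1r*, and that of the 9 pairs with *Mertk* was 0.08. These coefficients describe the mice at hand. All genes of a mouse share 1 library and 1 piece of tissue, and no test was attached. Among the 13740 other genes with a mean of at least 50, those most like the members by their mean r to the 10 genes were *Atp2a3* (0.76), *C1qa* (0.76), *Cfp* (0.75), *Arhgdib* (0.75) and *Apba1* (0.75), where the median over all these genes was -0.05.

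Between the sexes, the members fell into 2 sets. The sexes appear to have been scaled separately, so levels were set side by side with no test. *F13a1* averaged 5246 ± 1937 in WT males (SD, n = 3) and 1888 ± 654 in WT females (SD, n = 5), a ratio of 2.78. For *Cd209f* the ratio of WT males to WT females was 2.73, for *Folr2* 2.37, for *Mrc1* 2.11, for *Csf1r* 1.97, and for *Cd163* and *Mertk* 1.76. It was 1.2 for *Adgre1*, 0.916 for *Lyve1* and 0.855 for *Timd4*. In U9-KO mice the ratio of males to females ran from 2.4 for *F13a1* to 0.858 for *Timd4*. It was lower than in WT mice for 8 of the 10 genes with all mice but for 2 (*Csf1r* and *Mertk*) without WT male 2. Every male was above every female for 4 of 10 genes (*F13a1*, *Cd209f*, *Folr2* and *Mrc1*), beside 2.66% of all genes. Genes that did not overlap between the sexes in either direction made up 11.8%, and those with every female above every male 9.12%. The count of members was 3 with values taken as shares of the summed counts of each library, and 6 after scaling over all 17 mice. The share over all genes under these other scalings is not given here, so the counts of 3 and 6 have nothing beside them.

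A ratio within a library does not depend on scaling. Relative to *Adgre1* in the same library, *F13a1* was higher in males by 1.17 on the log2 scale (2.25-fold), with all 10 females between 0.54 and 1.68 and all 7 males between 2.16 and 2.53. *Csf1r* too was separate by sex on this measure, at 1.14 to 1.93 in females and 2.04 to 2.36 in males. *Cd209f*, *Folr2*, *Mrc1*, *Cd163* and *Mertk* had higher mean ratios in males by 0.40 to 0.93 but with ranges that overlapped. *Lyve1* and *Timd4* had lower mean ratios in males, with differences of -0.22 and -0.49, well inside the spread between mice. Between genotypes, the ratios to *Adgre1* overlapped for 9 of 9 genes in each sex. In males, the mean ratio of *Mertk* differed by only -0.06 between U9-KO and WT mice and that of *Csf1r* by -0.16, with *Adgre1* itself lower in U9-KO males. The lymphatic genes were lower in males, at 1857 to 3988 against 4239 to 7045. Their part in the *Lyve1* ratio was not tested.

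**Figure D5:**
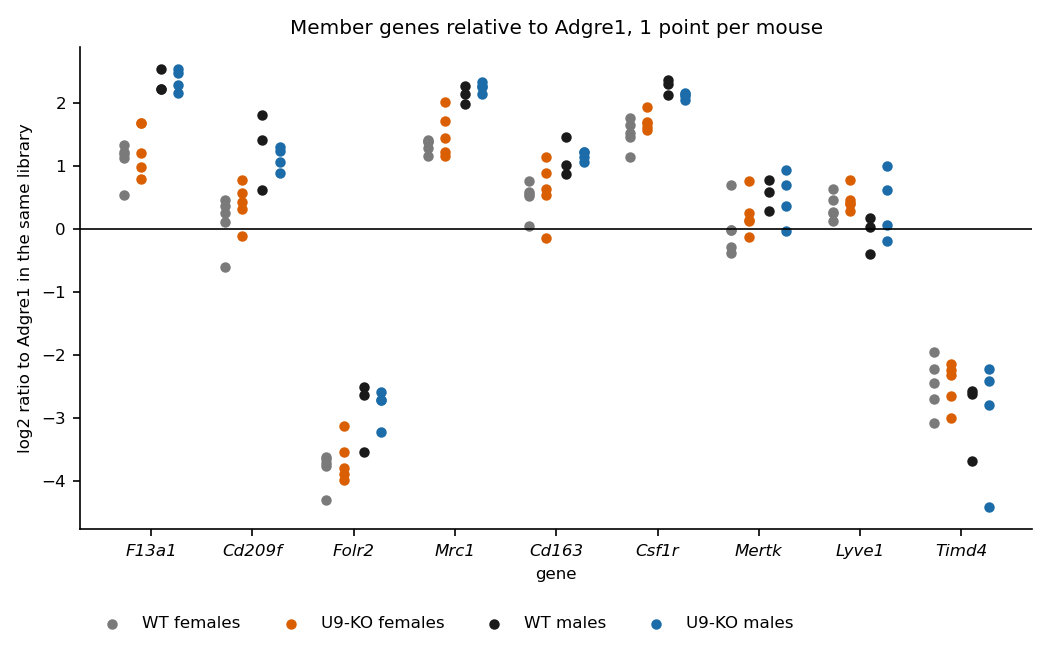
Log2 ratio of each member to *Adgre1* in the same library (vertical axis), 1 point per mouse, by sex and genotype. Males lie above females without overlap for *F13a1* and *Csf1r*, and the sexes share 1 range for *Lyve1* and *Timd4*.

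Per kilobase of exon, *Cd209f* had the highest mean of the 10 genes in each group, from 467 ± 127 normalized counts per kilobase in U9-KO females to 1351 ± 773 in WT males. *Timd4* and *Folr2* had the lowest, between 36.6 and 93.8. In WT females the order below *Cd209f* was *Csf1r* (430 ± 126), *Lyve1* (374 ± 97.7), *Mrc1* (338 ± 84.3), *F13a1* (280 ± 97.1), *Adgre1* (263 ± 56.4), *Cd163* (228 ± 74.1) and *Mertk* (192 ± 16.9), all as mean ± SD per kilobase (n = 5). Each of these 8 genes differed from its neighbour by less than the SD of the higher one. The step from *Mertk* to *Timd4* (74.5 ± 29.7) was larger than either SD, and *Timd4* and *Folr2* (39.6 ± 12.3) overlapped. *F13a1* was rank 5 of the 10 in both female groups, rank 3 in WT males and rank 2 in U9-KO males, while *Adgre1* was rank 6 in females and 8 in males.

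Genes carried by most macrophages were lower in U9-KO males as well. Of 16 such genes, all 16 were lower in U9-KO males, where 10933 of 21930 genes tested were lower. Of the 16, 9 had an unadjusted p under 0.05, where 898 of all genes were lower at that level. Of the 16, 0 had an adjusted p under 0.05. Their median log2 fold change was -0.44. The 9 were *Lyz2* (lysozyme, -0.66), *Fcer1g* (-0.59), *Laptm5* (-0.57), *Itgam* (CD11b, -0.56), *Spi1* (PU.1, -0.54), *C1qc* (-0.46), *C1qb* (-0.45), *Fcgr3* (-0.41) and *C1qa* (-0.38), the last of which belongs to complement C1q with *C1qb* and *C1qc*. The sum of the 16 was 29688, 47050 and 35375 in WT males and 26249, 27667, 21749 and 25898 in U9-KO males, without overlap. WT male 2 was again the highest, and fits of these genes without it are not given here. Lower values in U9-KO males were not particular to macrophage genes. They were found for 8 of 8 genes of dendritic cells (median -0.33), 6 of 6 of mast cells (-0.37), 6 of 6 of blood (-0.43), 7 of 8 of monocytes (-0.32) and 4 of 4 tested of neutrophils (-0.59), beside the B and T cell genes (-0.97 each). Of 6 adipocyte genes, 5 were higher (median 0.10). None of these had an adjusted p under 0.05, and their part in the macrophage values was not tested. In females 12 of the 16 macrophage genes were lower in U9-KO mice, beside 12433 of 24825 genes tested. Of the 16, 0 had an unadjusted p under 0.05 in females, and the median was -0.14.

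Of 20 further genes known from resident macrophages, 19 were lower in U9-KO males (10933 of 21930 over all genes). Of the 20, 8 were lower at an unadjusted p under 0.05 (898 of 21930 over all genes). They included *Ccl8* (a chemokine, -1.53), *Vsig4* (a complement receptor, -1.46), *Cd5l* (-0.94), *Fcna* (-0.64), *Cd209g* (-0.61), *Cd209a* (-0.56) and *Pf4* (-0.45). *Igf1*, which many cells of fat make, was the 1 that was higher, at 0.36 with an unadjusted p under 0.05. *Selenop*, the most abundant of the list, was at -0.27. The sum of the 20 was 62947, 73108 and 61151 in WT males and 53500 to 59734 in U9-KO males, without overlap. WT male 2 was again the highest. In females the median of the 20 was -0.04. The other 6 genes of the CD209 family were all lower in U9-KO males (median -0.51), with *Cd209e* (-0.81), *Cd209g* and *Cd209a* at an unadjusted p under 0.05. Their sum was 3910 in WT male 2, against 2043 and 2099 in the other WT males and 1521 to 1947 in U9-KO males. Fits of the 20 genes and of these 6 without WT male 2 are not given here. In females the median of the 6 was 0.07.

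The ligands and partners of the members gave a mixed picture. For CSF1R, the ligands *Csf1* (-0.12 in males, -0.07 in females) and *Il34* (-0.09 and -0.11) had no unadjusted p under 0.05, nor had the abundant signalling genes *Cbl* (0.12 in males) and *Grb2* (-0.04). Of 11 genes of this group tested in males, 10 were lower, beside 10933 of 21930 genes tested. *Spi1*, *Csf2rb* (-0.21) and *Sh2b3* (-0.18) had an unadjusted p under 0.05, as 7.6% of all genes had in males. For MERTK, the ligands *Gas6* (-0.32 in males) and *Pros1* (-0.29) and the sister receptors *Axl* (-0.19) and *Tyro3* (-0.39) had no unadjusted p under 0.05. Of 18 genes of dead cell uptake, 14 were lower in U9-KO males with a median of -0.09, and the 2 most abundant, *Cd36* and *Lrp1*, were at 0.09 and -0.10. In females 15 of the 18 were lower, beside 12433 of 24825 genes tested. *Stab2* (-1.03), a scavenger receptor that also binds hyaluronan, had an unadjusted p under 0.05 there, as 2.23% of all genes had.

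For CD163, haptoglobin (*Hp*) was at -0.31 in males and 0.25 in females and ferritin heavy chain (*Fth1*) at 0.07 and -0.03. *Hmox1*, which breaks down haem, was at -0.34 and *Blvrb*, which reduces biliverdin, at -0.22 in males. They were the 2 of 11 genes of haemoglobin and iron handling with an unadjusted p under 0.05. Over all genes, 7.6% were under it in males and 2.23% in females. For FOLR2, the reduced folate carrier *Slc19a1* was at 0.43 in males with an unadjusted p under 0.05, and *Slc46a1*, another folate transporter, was at 0.30. For LYVE1, 0 of 9 hyaluronan genes had an unadjusted p under 0.05 in males and 1 (*Stab2*) did in females, with *Cd44* at -0.22 and -0.10. *Cemip*, which takes part in the breakdown of hyaluronan, had 0 to 12 normalized counts in males, too few for a fold, and 37 to 6111 in females. For factor XIII, the abundant transglutaminase *Tgm2* was at 0.12 in males and -0.01 in females, and *Tgm1* at 0.06 and 0.08. None of these genes had an adjusted p under 0.05 in either sex.

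Genes known from macrophages of another kind were looked at too. Of 12 genes of lipid-associated macrophages, 11 were lower in U9-KO males, beside 10933 of 21930 genes tested. Of the 12, 0 had an unadjusted p under 0.05, beside 7.6% of all genes. Their median was -0.25, with *Apoe* at -0.28 and *Cd63* at -0.04. Their sum was 115012, 118809 and 147673 in WT males 1 to 3 and 102663 to 110781 in U9-KO males, without overlap. It was highest in WT male 3, not in WT male 2. Over the 17 mice the median mean r of these genes to the members was -0.18. *Apoe* made up most of that sum, with a mean of 113505 in WT males against 127165 for the 12 genes. Whether these transcripts came from such macrophages was not tested. In females 7 of the 12 were lower, beside 12433 of 24825 genes tested, with a median of -0.04.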

How the data were processed

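RNA of whole pWAT from 17 mice was sequenced (oligo(dT)-selected mRNA, paired-end reads of 150 bases, RNA integrity number above 7). The submitters' processing notes name STAR 2.7.3a, DESeq2 1.28.1 and GRCm38. What the authors deposited is, in unit, a score: a normalized count per gene, which is the read count over the library's size factor, rounded to a whole number. Size factors appear to have been set within each sex. As the values are not raw counts, no count test was run. Sums of normalized counts are not depths, so the reads of each library were estimated from how often each low value occurs. For some libraries, such as U9-KO male 3 (estimated size factor 1.171), this estimate was ambiguous. Alternatives were another pseudocount, filter, scaling or variance model, the replicate number as a block, and each mouse left out in turn. A table of all libraries repeats the single ones and was not used here, and 2 male columns in it carry other replicate numbers than the labels.

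The 55401 identifiers were matched to GENCODE M21, which named 55141. Genes with a total of at least 10 were fitted with limma 3.58.1 (R 4.3.3, lmFit and eBayes with trend) on log2(normalized count + 1), after a check on simulated data, with a threshold of 0.05 on the Benjamini-Hochberg adjusted p. Each sex was fitted alone, and 2 further fits of all 17 mice gave the genotype effect with sex as covariate and the sex by genotype interaction. Likeness used genes with a mean of at least 50. Named were *U90926*, the members, the 2 most abundant genes of each list of their pathways and those with an unadjusted p under 0.05 in either sex, and the 5 genes most like the members. A gene that this rule would name is not reported here. Other named genes were chosen after their values were seen. The members and lists were chosen with earlier results of these data known. Other values came from pandas 2.3.3 and numpy 2.4.6 (Python 3.11.15), and plots from matplotlib 3.10.9.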

Additional observations from a re-analysis of the deposited data

Results flagged for a closer look

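In groups of 4 or 5 mice, a mouse was singled out where its gap to the nearest other mouse took an unusually large share of the group's range (Dixon's test at the 95% level), which chance does in about 1 in 20 groups. Over the 10 genes and their sum, 33 groups were examined and 3 values stood out, against 1.65 by chance, all in WT female 4. *Csf1r* was 1196 there, against 2673 to 2953 in the other WT females. *Mrc1* was 1206, against 2236 to 2470. The sum of the 10 genes was 6267, against 12372 to 13546. The 3 values share 1 library and are not independent. Groups of 3, the WT males, could not be examined in this way.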

How the results depend on the processing

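In the 4 fits, 0 of 10 members had an adjusted p under 0.05 under any alternative, and the smallest adjusted p of a member was 0.123 (*Mertk* in males without WT male 1). Without the trend, 1 gene was called in females, 1 in males and 1 in both sexes, where a pseudocount of 0.5 or no filter also gave 1, and no filter gave 1 for the interaction. No such gene was a member. Leaving out 1 male gave 0 to 71 genes in males, 71 without WT male 1. The members' median in females ranged from -0.34 (without WT female 4) to -0.02 (without U9-KO female 1 or 3), and in males from -0.44 (without WT male 1) to -0.04 (without WT male 2). Of the 180, 140, 250 and 250 member values under alternatives in females, males, both sexes and the interaction, 14, 9, 3 and 22 changed direction. With 1 mouse left out in turn, log2 fold changes in females ranged from -0.34 to 0.14 for *Cd209f*, -0.39 to 0.04 for *F13a1*, -0.30 to 0.01 for *Mrc1*, -0.43 to 0.04 for *Cd163*, -0.34 to 0.01 for *Csf1r*, -0.58 to 0.02 for *Timd4* and -0.31 to 0.07 for *Folr2*. In males they ranged from -0.07 to 0.39 for *Lyve1*, -0.70 to 0.07 for *Timd4*, -0.41 to 0.01 for *Mrc1* and -0.57 to 0.11 for *Folr2*, and in both sexes from -0.15 to 0.04 for *Lyve1*. The interaction ranged from -0.43 to 0.25 for *Folr2*, -0.24 to 0.12 for *Adgre1*, -0.42 to 0.34 for *Timd4*, -0.31 to 0.11 for *Mrc1*, -0.33 to 0.14 for *Cd163* and -0.44 to 0.08 for *F13a1*. Without WT female 4 and U9-KO female 1, *Mertk* in females was 0.01, and the interaction was 0.08 for *Adgre1* and 0.26 for *Timd4*. The cause of these shifts was not tested beyond the mouse left out.

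Mice of WT and U9-KO groups share replicate numbers, and the labels do not say whether these numbers pair them. The correlation of same-numbered mice was between -0.46 and 0.22 in females and between -0.09 and 0.06 in males. Of the mice, 0 of 10 females and 1 of 6 males correlated best with the own number. With so few mice, these correlations cannot exclude a pairing. With the replicate block, 0 genes were called in each fit, genes with an unadjusted p under 0.05 numbered 456 instead of 553 in females and 1393 instead of 1667 in males, and the members' median was -0.12 in females and -0.35 in males. Members with an unadjusted p under 0.05 in males numbered 5 under the block (*Adgre1*, *Csf1r*, *Mrc1*, *Cd163* and *Mertk*) instead of 2. *Timd4* changed direction under it, to 0.07 in males and 0.34 in the interaction.

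With 3 WT and 4 U9-KO males, 1 mouse moves most values. The ratios of WT males to WT females moved by less than the spread between mice under either other scaling. The lowest member, *Folr2*, had 29 to 224 normalized counts, so counting error adds to its spread.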
